A study of Mus musculus with 4 samples.

Results

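Prostatic epithelial cells of embryonic urogenital sinus (UGS) explants were compared between the start of culture and its first day. The UGS is the embryonic tube from which the prostate buds grow. Its epithelium is a stratified endodermal sheet which, under androgens acting through the surrounding mesenchyme, forms the solid buds of the prostate. Explants of ICR (CD-1) mice, an outbred stock, were dissected at E15.5 and cultured with 10 µM dihydrotestosterone, the potent androgen that drives budding. EPCAM+ cells were sorted from the middle part of the explants, and the cells of days 0, 1, 3 and 6 were tagged with lipid-anchored MULTI-seq barcodes and run together in 1 droplet library. The cells of each day came from several pooled embryos, those of day 0 from a single litter and those of day 1 from more than one. There was 1 pool of cells per day, so every difference below compares these pools and has no replicate check. The day 0 cells were those of E15.5, before culture with dihydrotestosterone. Time in culture, the hormone, age and litter all differ between the pools and cannot be told apart.

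Of 7474 cells in the explant library, 6614 had over 1000 genes and under 7.5% of mitochondrial UMIs (unique molecular identifiers, each counting 1 captured RNA molecule). A day was given to 5541 of them, where the count of 1 MULTI-seq barcode, divided by its library median, was at least 3 and at least 2 times the next. The tags that define the pools of days 0 and 1 are shown with the variable barcode in capitals between the primer handle and the poly-A stretch.
Day 0: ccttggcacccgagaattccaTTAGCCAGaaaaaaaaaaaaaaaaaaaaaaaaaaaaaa
Day 1: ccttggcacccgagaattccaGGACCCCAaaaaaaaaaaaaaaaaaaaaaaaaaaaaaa
The cells were then chosen by measured UMIs, and kept as prostatic with at least 1 *Epcam* UMI, fewer than 2 *Pax2* UMIs, fewer than 5 UMIs of *Upk1a*, *Upk2* and *Upk3a* together, and fewer than 20 *Col1a1* and *Col3a1* UMIs per 10000. This kept 670 of 902 cells on day 0 and 771 of 985 cells on day 1, in all 1441 of the 19148 cells of the series. The 3 adult prostate libraries of the series shared 5, 5 and 6 cell barcode sequences with the explant library, and each library was read on its own. Close to the limits, 5 cells of day 0 and 13 of day 1 had exactly 1 *Epcam* UMI. Of the cells kept, 21 and 15 had 4 uroplakin UMIs, while 24 and 10 cells just outside had 5.

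The day 0 pool summed to 14419934 UMIs with a median of 17294 per cell, and the day 1 pool to 15531067 UMIs with a median of 16600. The chosen cells carried the genes of the UGS epithelium. Levels are given in CPM, the UMIs of a gene per 1000000 UMIs of its pool. *Krt15*, a basal keratin, stood at 4897 and 4248 CPM on days 0 and 1, *Krt8*, a simple epithelial keratin, at 871 and 801 CPM, *Shh*, the hedgehog ligand of the UGS epithelium, at 159 and 138 CPM, and *Hoxb13*, a homeobox gene of the prostate region, at 63.4 and 46.0 CPM. These 4 genes were within 1.5-fold between the pools. The 7 hematopoietic markers summed to 2.08 and 1.42 CPM, the 5 endothelial markers to 1.11 and 1.42 CPM and the 3 glial markers to 1.18 and 3.41 CPM, with *Lyz2*, *Tyrobp* and *Emcn* at 0 in both pools and *Ptprc* at 6 and 4 UMIs. The 10 mesenchymal markers summed to 206 and 209 CPM, of which *Dcn* alone gave 153 and 132 CPM. The 9 urothelial markers summed to 378 and 425 CPM and the 7 markers of mesonephric derivatives to 693 and 720 CPM.

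The first question is how much of the transcriptome differed after 1 day in culture. Of 9676 genes that averaged 5 CPM or more over both pools, 150 (1.55%) were at least 2-fold higher on day 1 and 131 (1.35%) at least 2-fold lower, in all 2.90%. The remaining genes lay close to the diagonal, with 86.7% within 0.5 on the log2 scale, and the median log2 fold of day 1 over day 0 was −0.09. Among the abundant genes, those averaging 50 CPM or more, 29 were past 2-fold upwards and 13 downwards. The 2-fold limit is a fixed size and not a test, and the 95% intervals given below cover counting error only.

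**Figure D1:**
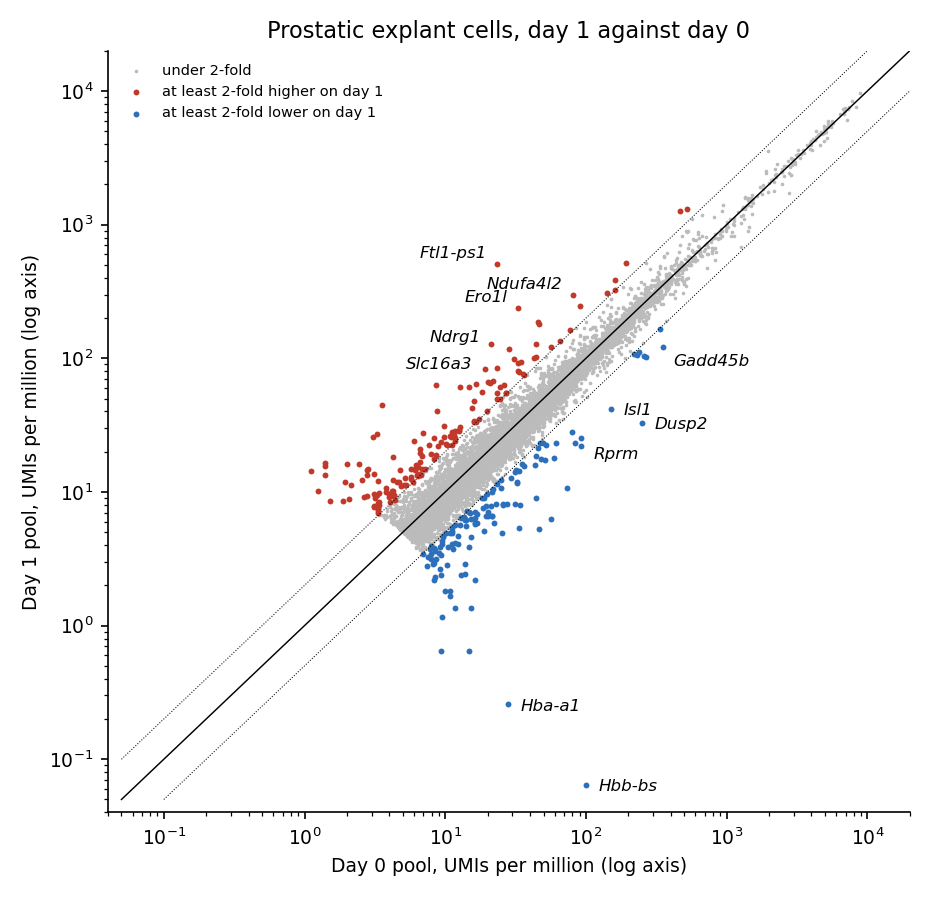
CPM of 9676 genes in the day 0 pool (horizontal, log axis) and the day 1 pool (vertical, log axis) of prostatic explant cells, 1 point per gene. The solid line marks equal levels and the dotted lines 2-fold; 150 genes lie at or above the upper line and 131 at or below the lower one, and *Hbb-bs* and *Hba-a1* at the bottom come from 1 cell of day 0.

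Of the gene lists examined, which were chosen with earlier results of these data known, that of hypoxia and glycolysis had the most members at least 2-fold higher on day 1, 20 of the 150 such genes. Cells short of oxygen stabilise HIF transcription factors, which bind the letters ACGTG or GCGTG near their target genes, and these targets raise glucose uptake and glycolysis and tune the response itself. Of 40 measured members, these 20 were at least 2-fold higher and 0 lower, against 1.55% of all genes, and 38 were above 0 on the log2 scale. The list's median log2 fold was 1.00, against −0.09 for all genes. Summed over the 42 members, the level was 9641 CPM on day 0, 16273 CPM on day 1, 13961 CPM on day 3 and 14160 CPM on day 6. Of the 12 genes with the largest folds among the abundant genes, 6 were members of the list.

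*Ero1l*, the endoplasmic reticulum oxidase that forms disulfide bonds (chr14:45283087-45318771, minus strand, GRCm38), had 32.7 CPM on day 0 (95% interval 29.8 to 35.8) and 237 CPM on day 1 (229.6 to 245). Its level was 7.26-fold higher on day 1 (log2 2.86, interval 2.72 to 3.00). *Ndrg1*, a stress-induced gene that androgens also induce (chr15:66929318-66969640, minus strand), went from 21.2 to 129 CPM, a log2 fold of 2.60 (2.43 to 2.78). *Slc16a3*, the lactate exporter MCT4 (chr11:120948480-120960868, plus strand), went from 19.1 to 82.5 CPM, a log2 fold of 2.11 (1.92 to 2.30). The intervals of both pools were apart for each of these genes. *Bnip3*, which directs mitochondria to autophagy, had 46.5 and 179 CPM (log2 1.95). *Adm*, a secreted vasodilator peptide, had 23.4 and 84.0 CPM (log2 1.84). *P4ha1*, a collagen prolyl hydroxylase, had 43.9 and 128 CPM (log2 1.55). On days 3 and 6, *Ero1l* was at 144 and 140 CPM and *Ndrg1* at 76.1 and 77.5 CPM, below day 1 and above day 0, while *Slc16a3* and *Adm* stayed between 77.2 and 87.9 CPM.

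Among the transporters and enzymes, *Slc2a1*, the glucose transporter GLUT1, had 90.4 CPM on day 0 and 248 CPM on day 1 (log2 1.46). *Slc2a3*, the transporter GLUT3, had 28 UMIs and 183 UMIs in the pools (log2 2.60). The glycolytic enzymes *Aldoa*, *Pgk1*, *Pfkp* and *Eno2* had log2 folds of 1.45, 1.32, 2.22 and 3.57. *Eno2*, the neuronal enolase isoform, had 20 UMIs on day 0 and 256 on day 1 that is 1.39 and 16.5 CPM, and was at 3.46 CPM on day 3. *Gapdh*, *Ldha*, *Pkm* and *Tpi1* were under 2-fold, at 0.84, 0.82, 0.58 and 0.69 on the log2 scale. Of the oxygen sensors of the HIF loop, *Egln3* had a log2 fold of 1.47 and *Egln1* one of 1.12. *Vegfa*, the vascular growth factor, was at 44.0 and 84.5 CPM (log2 0.94), and *Mif* was the member with the lowest log2 fold, −0.28. Outside the list, *Ndufa4l2*, a mitochondrial protein induced by HIF, had 80.4 and 298 CPM (log2 1.89), and *Cox4i2*, the alternative subunit of cytochrome oxidase, had 16.6 and 64.4 CPM (log2 1.95). They were the 2 members past 2-fold among 79 measured nuclear genes of oxidative phosphorylation, whose median log2 fold was 0.05.

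**Figure D2:**
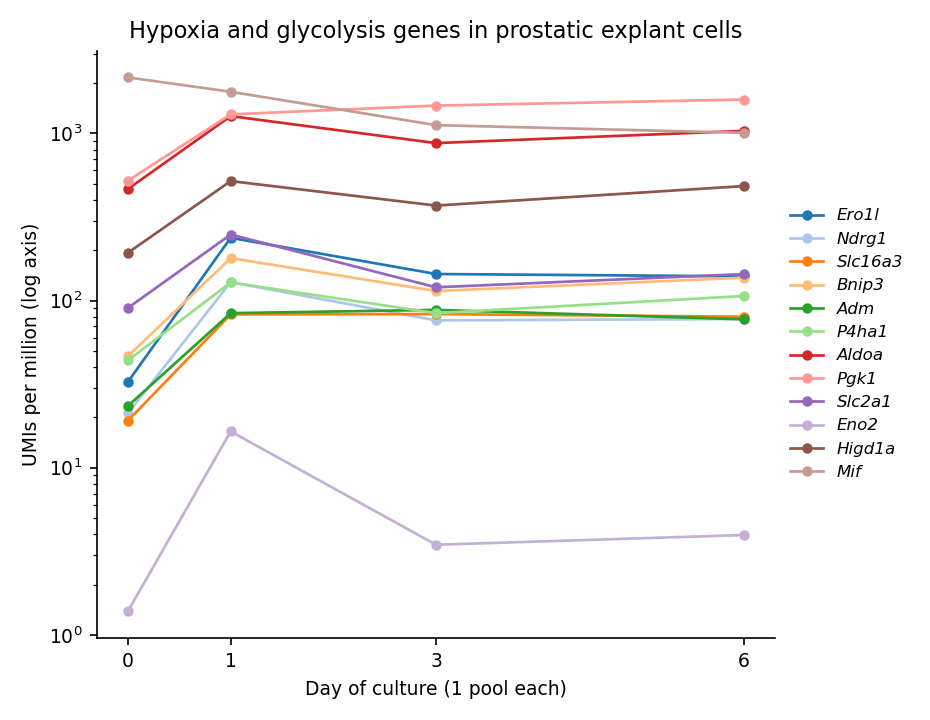
CPM (log axis) of 12 members of the hypoxia and glycolysis list in the pools of days 0, 1, 3 and 6, 1 point per gene and pool. All lines except that of *Mif* go up from day 0 to day 1, and *Ero1l*, *Ndrg1* and *Eno2* are lower on day 3 than on day 1 (for *Eno2*, 16.5 and 3.46 CPM).

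The day 1 cells were not uniform in these genes. With each cell thinned to 5000 UMIs, which left out 1 cell of day 0 and 15 of day 1, the 42 genes gave a median of 44 UMIs per cell on day 0 and 70.5 on day 1. The middle 50% of the cells ranged from 36 to 55 UMIs on day 0 and from 39 to 120 on day 1. On day 1, 42.3% of cells (320 of 756) were above the 95th percentile of day 0 (84.6 UMIs), and 30.2% were at or below the day 0 median. On days 3 and 6, 31.5% and 34.0% were above that percentile. Within day 1, cells with more UMIs of the list tended to have fewer UMIs of the BMP and TGF-beta list (Spearman correlation −0.42 across 756 cells) and of the S phase list (−0.36). On day 0 the same values were −0.26 and −0.10 across 669 cells. These are correlations across cells of 1 library, thinned to equal depth, whose counts share a fixed total, and they are given as a description. The study set apart a cluster of explant cells tied to hypoxia and cell stress. The rule used here had no such step, so cells of that kind may be among those kept. Their part in the values of the hypoxia and glycolysis list was not tested.

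**Figure D3:**
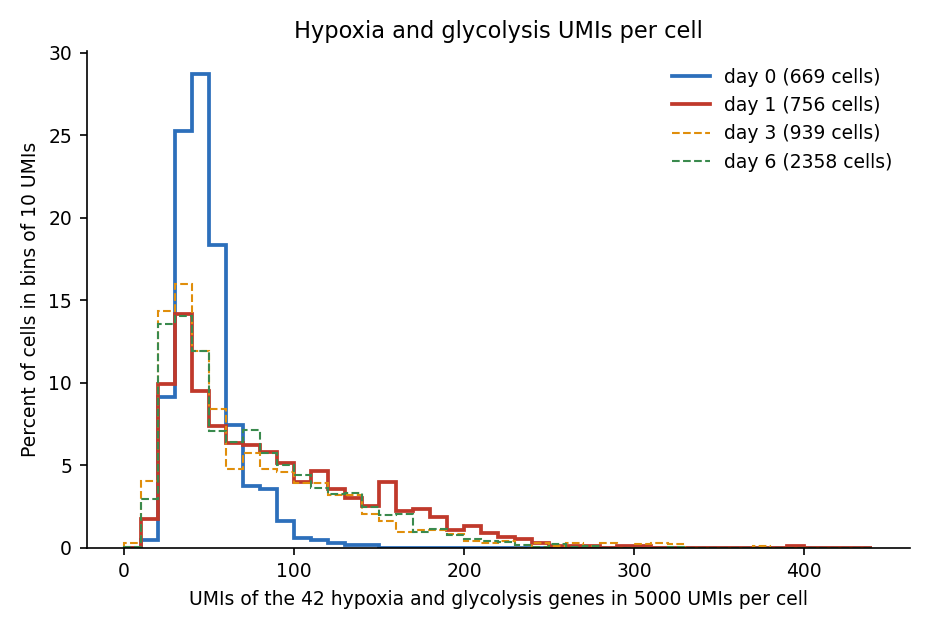
Distribution over cells of the UMIs of the 42 hypoxia and glycolysis genes among 5000 UMIs per cell (bins of 10 UMIs, percent of the cells of each day). The day 0 cells form 1 narrow peak with a median of 44 UMIs, and the day 1 cells overlap it and extend further to the right (95th percentile 192 UMIs, against 84.6 on day 0).

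Promoter windows of 5 of these genes are shown because their letters can be set beside the folds. Each is the 250 bases before the RefSeq start on the gene's strand (GRCm38.p6), with the letters ACGTG and GCGTG in capitals on either strand, so that CACGT and CACGC are their reverse complements. Overlapping matches run together, as in the CACGTG of *Bnip3*. The *Ero1l* window is listed in RefSeq as *Ero1a*.
Bnip3, chr7:138909507-138909756, minus strand: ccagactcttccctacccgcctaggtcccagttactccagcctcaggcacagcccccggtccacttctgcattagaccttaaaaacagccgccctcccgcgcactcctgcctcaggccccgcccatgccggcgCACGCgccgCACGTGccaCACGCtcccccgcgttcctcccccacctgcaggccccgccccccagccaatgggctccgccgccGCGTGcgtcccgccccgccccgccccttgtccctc
Ero1l, chr14:45318573-45318822, minus strand: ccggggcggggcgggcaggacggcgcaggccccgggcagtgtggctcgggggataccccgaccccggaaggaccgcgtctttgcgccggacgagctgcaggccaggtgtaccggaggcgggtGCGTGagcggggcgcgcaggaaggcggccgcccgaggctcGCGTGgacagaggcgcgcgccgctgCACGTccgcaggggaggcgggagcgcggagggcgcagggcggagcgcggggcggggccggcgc
P4ha1, chr10:59323046-59323295, plus strand: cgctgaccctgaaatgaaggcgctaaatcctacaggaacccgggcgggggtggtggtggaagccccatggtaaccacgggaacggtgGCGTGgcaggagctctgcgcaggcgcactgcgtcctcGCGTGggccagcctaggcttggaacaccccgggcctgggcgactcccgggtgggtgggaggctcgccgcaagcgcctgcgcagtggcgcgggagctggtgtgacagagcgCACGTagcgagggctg
Adm, chr7:110627407-110627656, plus strand: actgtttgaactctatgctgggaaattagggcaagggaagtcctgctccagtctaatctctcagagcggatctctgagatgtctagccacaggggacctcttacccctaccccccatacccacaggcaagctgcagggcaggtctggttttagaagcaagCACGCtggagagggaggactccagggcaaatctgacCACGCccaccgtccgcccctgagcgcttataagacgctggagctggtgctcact
Slc16a3, chr11:120948817-120949066, plus strand: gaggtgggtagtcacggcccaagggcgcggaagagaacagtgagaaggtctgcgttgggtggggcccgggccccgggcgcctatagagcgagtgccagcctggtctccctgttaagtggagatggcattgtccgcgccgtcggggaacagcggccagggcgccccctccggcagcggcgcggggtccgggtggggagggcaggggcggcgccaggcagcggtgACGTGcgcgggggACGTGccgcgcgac
The *Bnip3* window held 5 matches, the *Ero1l* and *P4ha1* windows 3 each, and the *Adm* and *Slc16a3* windows 2 each. *Eno2*, the list member with the highest log2 fold (3.57), had 1 window with 0 matches. No window was found for *Ndrg1* or *Ndufa4l2*. Of 39 list members with a window, 34 (87.2%) held the letters in at least 1 of their windows, against 41.5% of all 27025 genes with a window. Within the list the share was 16 of 18 among members at least 2-fold higher on day 1 and 16 of 19 among those tested that were not past 2-fold. The share over the whole list does not use the folds. It describes genes picked for hypoxia and glycolysis, and says nothing about the change between days. Genes were not matched in base content or number of windows. A match is a description of letters and not a binding site.

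The integrated stress response, in which phosphorylated eIF2α favours translation of ATF4 and ATF4 activates genes of amino acid supply, had fewer members past 2-fold than the hypoxia list. Of 31 measured members, 8 were at least 2-fold higher, against 1.55% of all genes, and 0 lower, with a median log2 fold of 0.38. *Trib3*, a pseudokinase induced by ATF4, had 16 UMIs on day 0 and 222 on day 1 (log2 3.69, interval 2.96 to 4.52). *Asns*, asparagine synthetase, had 21.8 and 68.1 CPM (log2 1.64), and *Stc2*, a secreted glycoprotein, had 4.23 and 18.4 CPM (log2 2.12). *Nupr1*, a stress-induced chromatin protein, had 15.9 and 48.3 CPM (log2 1.60), but 0.49 in cells with a *Xist* UMI and no Y-linked UMI. *Atf4* itself (log2 0.06) and *Ppp1r15a* (log2 0.03), which ends the response, were at the same level in both pools within 0.1. For *Trib3* the RefSeq window held no TGATGNAA, the letters of the C/EBP-ATF element, which 3.91% of all genes with a window and 10 of 30 list members held on either strand.

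Of 20 measured chaperones and other genes of the unfolded protein response of the endoplasmic reticulum (ER), 0 were past 2-fold in either direction. Their log2 folds lay at or under 0.99, 19 were above 0, and the median log2 fold was 0.58. *Hspa5*, the master ER chaperone BiP, had 527 and 899.9 CPM (log2 0.77), *Hsp90b1* had 522 and 883 CPM (log2 0.76), and *Sdf2l1* had the highest log2 fold, 0.99. In contrast, the cytosolic heat shock list had a median log2 fold of −0.38, with 16 of 18 members below 0 and 0 past 2-fold. *Hspa1a* and *Hspa1b*, inducible HSP70 copies whose reads are hard to separate, had log2 folds of −0.61 and −0.59, and were at 60.3 and 46.7 CPM on day 6 against 824 and 428 CPM on day 0. *Hsph1*, an HSP110 cochaperone, had the lowest fold of the list, from 102 to 50.9 CPM. Cholesterol synthesis and uptake genes, targets of SREBP2, had a median log2 fold of 0.54, with 23 of 25 above 0 and 2 past 2-fold upwards, against 1.55% of all genes, among them *Lss*, lanosterol synthase (log2 1.09). *Hmgcs1*, the first committed enzyme of the mevalonate pathway, went from 150 to 244 CPM (log2 0.70) and was at 309 CPM on day 3.

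**Figure D4:**
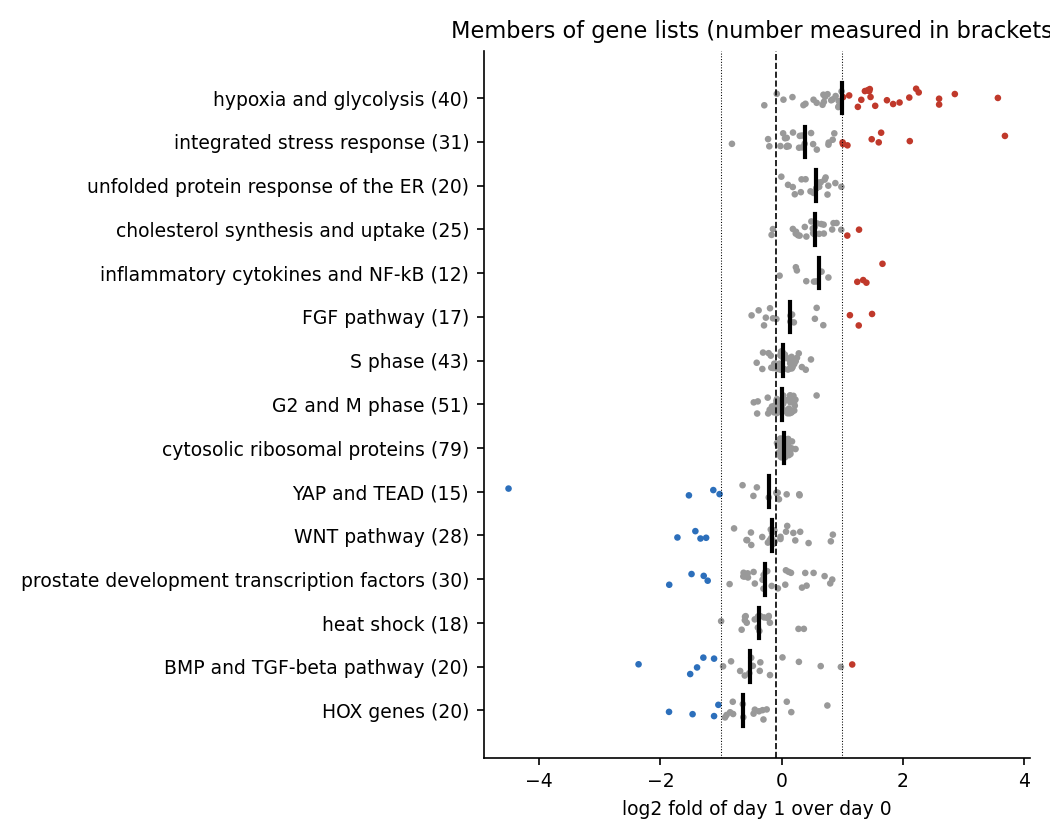
log2 fold of day 1 over day 0 for each measured member of 15 gene lists, with the number of members tested in brackets. Red and blue points are at least 2-fold higher or lower, black bars are list medians, dotted lines mark 2-fold and the dashed line is the median of all 9676 genes (−0.09); the bar of the hypoxia and glycolysis list stands at 1.00 and that of the HOX genes at −0.63.

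A part of the BMP and TGF-beta pathway was lower on day 1. These growth factors act through SMAD proteins, which switch on their own inhibitors, and BMP signals restrain prostatic budding. Of 20 measured members, 5 were at least 2-fold lower (1.35% of all genes were) and 1 higher, 5 were above 0, and the median log2 fold was −0.52. Among the inhibitors, *Nog*, the secreted BMP antagonist noggin, had 25.5 CPM on day 0 and 4.96 CPM on day 1 (log2 −2.36), and was at 1.23 CPM on day 3. *Bambi*, a decoy receptor, had 79.8 and 28.1 CPM (log2 −1.51). *Skil*, the SMAD corepressor SnoN, had 268 and 102 CPM (log2 −1.39), *Smad6* had 18.6 and 7.60 CPM (log2 −1.29) and *Smad7* had a log2 fold of −0.96. Outside the list, *Pmepa1*, a gene induced by TGF-beta and by androgens, had 259 and 103 CPM (log2 −1.32). Among the direct targets *Id1*, *Id2* and *Id3*, the log2 folds were −0.35, −0.47 and −0.68. Among the ligands, *Tgfb2* had a log2 fold of −1.11, while *Tgfb1* stood at 1.17 and *Bmp7* at 0.98. Per cell, the list gave a median of 28 UMIs in 5000 on day 0 and 16 on day 1.

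The lowest fold among abundant genes was that of *Dusp2*, a nuclear MAP kinase phosphatase (chr2:127336159-127338376, plus strand). It had 251 CPM on day 0 (243 to 259) and 32.8 CPM on day 1 (30.0 to 35.7), 7.65-fold lower (log2 −2.94, interval −3.07 to −2.80), and was at 31.9 and 49.7 CPM on days 3 and 6. *Isl1*, a LIM homeobox factor (chr13:116298281-116309689, minus strand), had 151 and 41.7 CPM (log2 −1.85) and was at 25.6 and 11.1 CPM on days 3 and 6. *Uchl1*, a ubiquitin hydrolase, had 92.8 and 25.5 CPM (log2 −1.86), and *6330403K07Rik* had 83.5 and 23.4 CPM (log2 −1.83). With cells thinned to 5000 UMIs, *Isl1* had a UMI in 44.1% and 18.3% of the cells of days 0 and 1 and *6330403K07Rik* in 33.9% and 10.8%. Among 52 cells with collagen UMIs and no *Epcam* UMI, taken from the library without regard to day, these shares were 69.2% and 86.5%. Both were above both prostatic pools. The part of free RNA in the 2 values was not tested. The cytoskeletal genes *Rnd3*, a small GTPase, and *Map1b*, a microtubule protein, had log2 folds of −1.11 and −1.03. The latter was −0.95 with TMM scaling. *Glo1*, glyoxalase 1, had 229 and 106 CPM (log2 −1.11).

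*Gadd45b*, a stress sensor, and *Rprm*, a p53-induced inhibitor of mitosis, had log2 folds of −1.54 and −2.07, from 353 and 92.2 CPM on day 0. The values were unlike in cells marked by *Xist* and by Y-linked genes, a difference that was not tested. In cells with a Y-linked UMI and no *Xist* UMI (362 and 367 cells) they were −2.40 and −2.57, and in cells with a *Xist* UMI and no Y-linked UMI (158 and 215 cells) they were −0.10 and −0.24. *Gata2*, at −1.22 over all cells, was at −1.84 and −0.13 in these classes. Cells with at least 2 *Pax2* UMIs, which the rule set aside (50 on day 0 and 19 on day 1), had 1532 CPM of *Gadd45b*, 384 CPM of *Rprm* and 146 CPM of *Gata2* on day 0. Among the mesonephric markers in the chosen cells, *Lhx1* had 234 UMIs on day 0 and 34 on day 1 and *Pax2* 63 and 27, and 2 of the 7 were higher on day 1 (*Wfdc2* 436 and 544 CPM, *Sox17* 13.1 and 15.8 CPM). The part of such cells in the folds was not tested. Under a stricter rule, with at least 2 *Epcam* UMIs, no *Pax2* or uroplakin UMI and under 5 collagen UMIs per 10000 (413 and 582 cells), *Gadd45b* and *Rprm* were at −1.80 and −2.14. *Aldh1a3*, which makes retinoic acid, had 72.7 and 10.7 CPM (log2 −2.77), −2.80 under that stricter rule, and −1.88 in the *Xist* class.

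Among developmental regulators, members past 2-fold were lower on day 1. Of 20 measured HOX genes, 4 were at least 2-fold lower, where 1.35% of all genes were, 0 were higher, and the median log2 fold was −0.63. They were *Hoxd1*, *Hoxb8*, *Hoxb3* and *Hoxb9*, at −1.86, −1.47, −1.11 and −1.04, the last at −0.96 with TMM scaling. The posterior genes *Hoxb13* and *Hoxd13* were at −0.46 and −0.31. In cells with a *Xist* UMI and no Y-linked UMI, *Hoxb8*, *Hoxb3* and *Hoxb9* were at −0.63, −0.49 and −0.45. Of 30 measured transcription factors of prostate development, 4 were lower past 2-fold, against the same 1.35%, *Isl1*, *Tbx2* (log2 −1.49), *Grhl3* (log2 −1.28) and *Gata2*, and 0 were higher. *Foxa1*, a pioneer factor of endodermal epithelium, was at 75.4 and 61.4 CPM (log2 −0.30), and *Trp63*, the basal master regulator, at 82.8 and 87.1 CPM (log2 0.07). *Sox9*, which marks prostatic buds, was at 97.1 CPM on day 0, 169 CPM on day 1 and 195 CPM on day 3 (log2 0.80 for day 1 over day 0, interval 0.71 to 0.90).

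*Runx1*, the transcription factor for which the study was made (chr16:92601466-92826149, minus strand), had 96.9 CPM on day 0 and 86.6 CPM on day 1 (log2 −0.16, interval −0.27 to −0.05). It was at 55.6 and 63.3 CPM on days 3 and 6. With cells thinned to 5000 UMIs, 32.3% of cells on day 0 (28.8% to 36.0%) and 30.3% on day 1 (27.0% to 33.7%) had a *Runx1* UMI, intervals that overlap. Among the 52 cells with collagen UMIs and no *Epcam* UMI, taken without regard to day, the share was 15.4% (6.88% to 28.1%). Before thinning those cells had a median of 7387 UMIs. Without thinning, 69.9% and 69.1% of the prostatic cells had a *Runx1* UMI.

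Keratins of the later basal lineage were under 2-fold. *Krt5* and *Krt14*, basal keratins, had log2 folds of 0.34 and 0.42, and *Krt15* one of −0.21. *Krt4*, *Psca* and *Ly6d*, genes of proximal luminal cells, were at 0.26, 0.15 and 0.19. Of 18 measured members of the proximal luminal list, 4 were at least 2-fold higher (1.55% of all genes were), namely *Aqp5*, *Nupr1*, *Tspan1* and *Lgals3* (log2 2.20, 1.60, 1.24 and 1.04), and the list median was 0.36. Among 17 measured androgen-responsive genes, *Ndrg1* was the 1 member past 2-fold upwards and *Pmepa1* the 1 downwards, with a median of 0.13.

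Growth factor, cytokine, WNT and YAP lists each had 3 or 4 members past 2-fold, where 1.55% of all genes were higher and 1.35% lower. Of 17 measured FGF pathway genes, *Etv4*, *Fgfbp1* and *Etv5* were higher (log2 1.49, 1.27 and 1.13), the last at 0.46 in thinned cells. *Etv4* and *Etv5* are transcription factors that FGF signals induce, and *Etv4* had 32.7 and 92.0 CPM. *Spry1*, *Spry2* and *Spry4*, the feedback inhibitors, were between −0.29 and 0.15. Of 12 measured NF-kB and cytokine genes, *Cxcl2*, *Cxcl10*, *Cxcl1* and *Tnfaip3* were higher (log2 1.67, 1.40, 1.35 and 1.25), of which *Cxcl1* and *Cxcl2* were at 0.38 and 0.46 in cells under the median share of cell cycle UMIs and *Cxcl10* at 0.52 under the stricter rule. Of 28 measured WNT genes, *Wnt7a*, *Notum*, *Dkk1* and *Nkd1* were lower (log2 −1.72, −1.42, −1.34 and −1.24) and 0 higher. Of 15 measured YAP and TEAD targets, *Ankrd1*, *Dlc1*, *Amotl2* and *Cyr61* were lower, of which *Ankrd1* had 211 UMIs on day 0 and 10 on day 1 (log2 −4.51). *Amotl2* and *Cyr61* were at −1.13 and −1.02, but at −0.16 and −0.48 in cells with a *Xist* UMI and no Y-linked UMI and at −0.16 and −0.08 in cells with at least 5 uroplakin UMIs. With TMM scaling *Cyr61* was at −0.94. The median log2 folds of 43 S phase genes and 51 G2 and M phase genes were 0.02 and 0.00, with 0 past 2-fold in either list, and that of 79 ribosomal protein genes was 0.05.

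Other abundant genes higher on day 1 were *Klf2*, a Krüppel-like factor (28.2 and 117 CPM, log2 2.05), *Espn*, an actin-bundling protein (45.7 and 188 CPM, log2 2.04), and *Gpx2*, a selenium-dependent glutathione peroxidase (30.7 and 99.4 CPM, log2 1.70). *Gpx2* reached 285 CPM on day 3. *Selenom*, another selenoprotein, had 18.4 and 56.0 CPM (log2 1.61), and *Mest*, an imprinted gene, had 14.8 and 60.6 CPM (log2 2.04). The 22 measured genes of the selenium list had a median of −0.11.

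The largest fold of all abundant genes was that of *Ftl1-ps1* (chr13:74399694-74407346, plus strand), a sequence close to the ferritin light chain gene *Ftl1*, at 23.4 CPM on day 0 and 508 CPM on day 1 (log2 4.44, interval 4.28 to 4.60). It was carried by a part of the cells. On day 1, 374 of 771 cells (48.5%, exact binomial interval 44.9% to 52.1%) had at least 4 UMIs, with a median of 18, and 354 had 0. At least 4 UMIs were found in 18 of 670 cells on day 0 (2.69%), 5 of 948 on day 3 (0.527%) and 249 of 2374 on day 6 (10.5%). *Ftl1* was at 1597 CPM in the day 1 cells with at least 4 UMIs of *Ftl1-ps1* and at 2573 CPM in the others. Reads of these genes are hard to separate, so the level of either is uncertain. In the day 1 cells with under 4 *Ftl1-ps1* UMIs (397 cells) the hypoxia and glycolysis list had a median log2 fold of 0.95, and in those with at least 4 (374 cells) 1.03, each against all day 0 cells. In the same classes *Aldh1a3* was at −2.08 and −3.70 and *Rprm* at −1.52 and −2.72. *Hoxb8* was at −1.13 and −1.80, and *Nupr1* at 0.92 and 1.98. *Dusp2* (−2.84 and −3.01), *Isl1* (−1.83 and −1.87) and *Gadd45b* (−1.63 and −1.47) differed less. *Xist* was at 210 and 432 CPM in these day 1 classes, and the Y-linked genes at 113 and 79.4 CPM. Litters and embryos were not labelled in the cells, and their part in this pattern was not tested.

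A single cell can also decide a value. *Hbb-bs*, a beta globin gene, had the lowest log2 fold of all genes, −10.59, and 1430 of its 1433 UMIs on day 0 came from 1 cell, which also held 402 of the 403 *Hba-a1* UMIs. Without the highest cell of each gene the log2 folds of *Hbb-bs* and *Hba-a1* were −0.11 and 1.48, from at most 4 UMIs a pool. In all, 3 genes past 2-fold had over 50% of the UMIs of the higher pool in 1 cell. Cells with a Y-linked UMI and no *Xist* UMI made up 54.0% of day 0 and 47.6% of day 1, those with *Xist* alone 23.6% and 27.9%, and those with both 16.4% and 16.1%.

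The same contrast was then read in the cells with at least 5 uroplakin UMIs, bladder-type cells that the rule had set aside. There were 151 such cells on day 0 and 127 on day 1, without those already set aside by *Pax2*. They come from the same pools, so they share litter, culture and barcode with the prostatic cells. In them, 2.03% of 9494 genes were at least 2-fold higher and 1.55% lower. The hypoxia and glycolysis list had 14 of 39 members at least 2-fold higher, 0 lower and a median log2 fold of 0.85. The proximal luminal list had 9 of 19 members at least 2-fold higher, 0 lower and a median of 0.97, against 0.36 in the prostatic cells. Of 18 measured HOX genes, 3 were at least 2-fold higher and 1 lower, with a median of −0.27, against −0.63. The BMP and TGF-beta list had a median of −0.39, against −0.52. *Ero1l*, *Ndrg1* and *Slc16a3* were at 2.36, 1.86 and 1.59. *Dusp2* and *Isl1* were at −1.94 and −1.83 and *Ftl1-ps1* at 4.78. Values of the other sign or near 0 were found for *Rprm* (0.76), *Gadd45b* (−0.29), *Hoxb8* (1.76) and *Aldh1a3* (−0.01), the last from 2.39 and 2.36 CPM. The differences between the 2 kinds of cell were not tested.

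**Figure D5:**
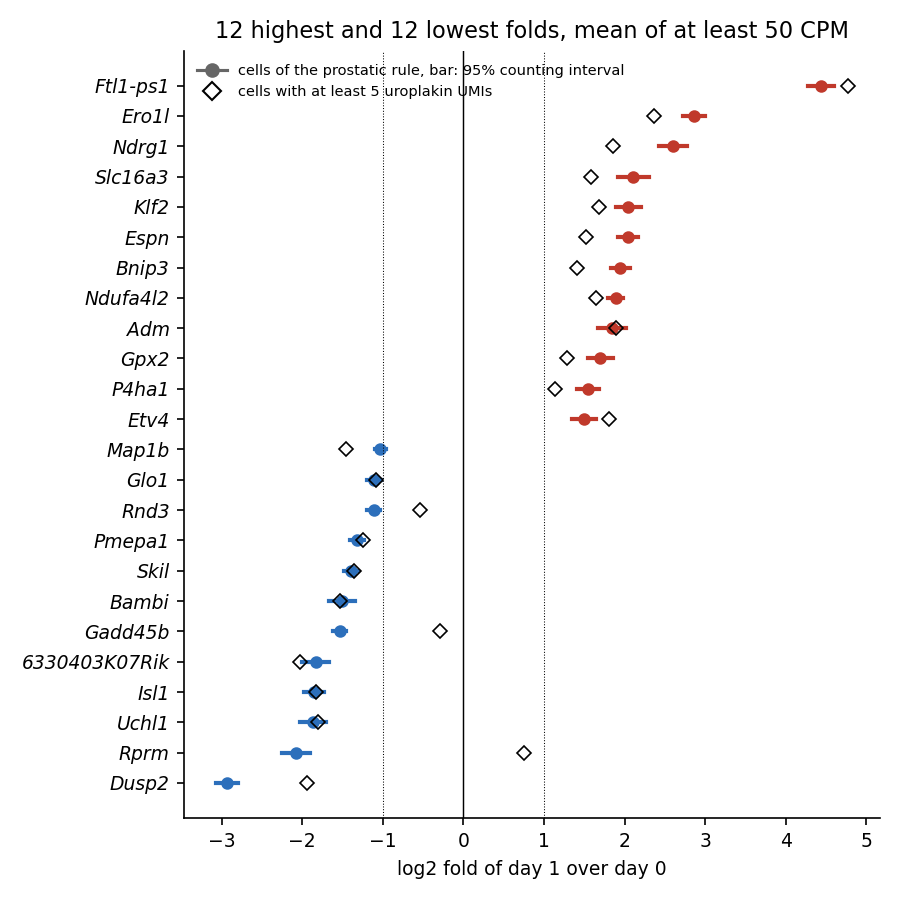
log2 fold of day 1 over day 0 for the 12 highest and 12 lowest genes averaging 50 CPM or more. Filled circles are the cells of the prostatic rule with 95% counting intervals, open diamonds the cells with at least 5 uroplakin UMIs; *Rprm* (−2.07 against 0.76) is the 1 gene with opposite signs.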

How the data were processed

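UGS explant cells were profiled by droplet-based scRNA-seq (10x Genomics 3′ v3). The authors ran Cell Ranger 3.1.0 on mm10 (GRCm38) and deposited raw UMI counts per gene and cell, together with MULTI-seq barcode counts. Their processing notes also name Seurat 3.1.5. Their test over cells was not used, since cells are not replicates. UMIs of the chosen cells were summed per day and divided by the total (CPM). Intervals are exact (Poisson for CPM, conditional binomial for folds, binomial for shares), at 95%, and cover counting error only. A pool at 0 UMIs was set to 3. No test was made, since there was 1 pool per day. Doublets were not called, and cells with 2 barcodes were left out by the barcode rule. Shares of cells were taken after thinning each cell to 5000 UMIs (seed 1). Gene coordinates are those of GENCODE M21 and promoter windows those of RefSeq.

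Genes were named by rule: the 12 highest and 12 lowest folds with a mean of at least 50 CPM, outside the genes of the cell rule, mitochondrial, *Xist* and Y-linked genes; up to 4 members of each list past 2-fold with at least 10 CPM, or the 2 most abundant; and genes the study names. Further list members were named with their values seen. Some genes that meet the rule are not reported here. The members and the lists were chosen with earlier results of these data known. Alternatives covered scaling (edgeR 4.0.16 TMM), filters, barcodes, the prostatic rule, thinning, cell cycle and the sex of the embryos. Simulated pools with planted folds were used to check the fold code. Python 3.11.15, numpy 2.4.6, scipy 1.17.1 and pandas 2.3.3 were used.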

Additional observations from a re-analysis of the deposited data

How the results depend on the processing

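No paired analysis was possible because there was 1 pool per day. What depth limits is the low genes, since 3 UMIs are 0.208 and 0.193 CPM. The counts of 150 higher and 131 lower genes were within 1.5 times of these under most alternatives. They became 1815 and 2098 with no filter beyond 1 UMI, 58 and 37 among genes averaging 20 CPM or more, 232 and 243 in cells under the median share of cell cycle UMIs, and 275 and 272 in cells with a *Xist* UMI only, of which there were fewer. The count of lower genes was 252 in cells with a Y-linked UMI only, 199 with the study's barcode thresholds and 230 in thinned cells. The sign of all 150 higher genes was kept in each alternative apart from the *Xist* cells (147) and the 2 classes of day 1 cells by *Ftl1-ps1* (149 each). That of all 131 lower genes was kept apart from 1 or 2 genes under 3 alternatives and from 12 in *Xist* cells. TMM scaling shifted the median of all genes by under 0.1.

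The median log2 fold of the hypoxia and glycolysis list ranged from 0.92 to 1.46. It was 1.46 in cells of low cell cycle share, 1.38 in *Xist* cells, 1.21 as a mean over cells and 1.24 in thinned cells. In cells of low cell cycle share and in *Xist* cells, the stress response list was at 0.66 and 0.66, the ER list at 0.74 and 0.93 and the heat shock list at −0.51 and −0.49. The heat shock list was at −0.29 with TMM, the HOX list at −0.31 in *Xist* cells, and the stress response and ER lists at 0.29 and 0.40 in day 1 cells with under 4 *Ftl1-ps1* UMIs. The cause was not tested. Signs turned for *Ftl1-ps1* in those cells (−1.70), by construction, and for *Hba-a1* under the stricter prostatic rule (1.24), in cells of low cell cycle share (0.94) and without its highest cell (1.48), and for *Hbb-bs* in cells of low cell cycle share (0.53) and in *Xist* cells (1.24). Of 62 named genes past 2-fold, 59 kept 1 sign and 37 stayed past 2-fold in the 16 settings run. The settings by *Ftl1-ps1* and without the highest cell were added after seeing the data.

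Shares of cells follow the UMIs used. With 3000 UMIs they were 24.0% and 21.8% for *Runx1* on days 0 and 1, 6.27% and 25.6% for *Ndrg1*, and 33.0% and 7.17% for *Dusp2*. With all UMIs they were 69.9% and 69.1% for *Runx1*, 25.8% and 47.7% for *Ndrg1*, and 61.0% and 24.8% for *Dusp2*. On day 0, *Runx1* was at 37.1% in Y-linked cells, *Ndrg1* at 6.09% there, 7.39% with the study's thresholds and 7.28% under the stricter rule, and *Dusp2* at 46.1% with those thresholds.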
